A study of Mus musculus with 27 samples.

Results

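A set of 9 genes for antimicrobial proteins that the intestinal epithelium secretes or displays at its surface was followed in the colon of mice given TCDD, the dioxin 2,3,7,8-tetrachlorodibenzo-p-dioxin and a potent ligand of the aryl hydrocarbon receptor (AhR). The genes, taken by symbol through their Ensembl identifiers from 46078 gene rows, were Ang4, Lyz1, Retnlb, Mptx1, Mptx2, Reg3b, Reg3g, Itln1 and Lypd8. They were singled out because several of them were lower at high doses in these same mice, so the differences from vehicle given here are a description and carry no test. Of the 9 genes, 8 passed the filter on low counts, and Mptx2 did not.

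The colonic epithelium is covered by mucus and by secreted proteins that keep bacteria away from the cell surface. Goblet cells, Paneth cells of the small intestine and the secretory cells deep in the colonic crypts make many of these proteins, while absorptive colonocytes make others. Cytokines such as interleukin 22 act through STAT3 in epithelial cells to raise Reg3b and Reg3g, and type 2 cytokines raise Retnlb and Itln1, whereas the AhR is a sensor of diet, microbial and environmental ligands in lymphoid and epithelial cells.

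Male C57BL/6 mice received sesame oil (vehicle) or TCDD by oral gavage at 8 doses, of which the lower 4 were 0.01, 0.03, 0.1 and 0.3 μg/kg and the upper 4 were 1, 3, 10 and 30 μg/kg. They were gavaged 7 times, once in 4 days, between 28 and 56 days of age, and tissue was taken on day 28 of the study. RNA from scrapings of the colonic epithelium was sequenced for 3 mice in each of the 9 groups, 27 in all, and read counts per gene were deposited. Each library held between 9305441 and 14371035 reads assigned to genes. A scraping holds every cell type of the mucosa, so fewer cells of a type and less RNA per cell cannot be told apart in any value that follows. Each of 11 library barcodes was used for a pair of mice, and, with the mice taken in order of their numbers, the first repeat divides them into a first set of 16 (vehicle, the lower 4 doses and 1 of the mice given 1 μg/kg) and a second set of 11 (the other 2 mice of that dose and those given 3, 10 or 30 μg/kg). Index set and dose therefore largely coincide. Vehicle and the 3 highest doses share no set, so a fit with the index set as a term separates set from dose only through the 3 mice of the 1 μg/kg group. Mouse 41, the 1 mouse of that group placed in the first set, is among 5 mice whose barcodes did not recur, so its place there is assumed from its number. Cyp1a1, the classical AhR target gene, rose from a mean of 0.0655 to 2200 counts per 1000000 (CPM) between vehicle and 30 μg/kg.

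Compared per length of exon, the members differed widely in level. In the vehicle mice Lypd8 stood highest at 3235 ± 339 reads per kilobase of exon and 1000000 reads (RPKM, SD, n = 3), followed by Mptx1 at 1444 ± 357 RPKM. Reg3b (366 ± 290 RPKM), Ang4 (366 ± 145 RPKM) and Retnlb (225 ± 147 RPKM) came next and overlapped one another within their spread. Reg3g (21.3 ± 18.5 RPKM) and Itln1 (8.57 ± 3.82 RPKM) overlapped likewise, as did Itln1 and Lyz1 (2.73 ± 3.22 RPKM). Mptx2 had the lowest mean, 0.495 ± 0.495 RPKM, and Lyz1 overlapped it within its spread. The reads of close paralogs limit some of these values. Of all 50-base stretches of the annotated transcripts, 17.9% of those of Mptx1 also occurred in Mptx2, a similar share of those of Mptx2 in Mptx1 (134 stretches), 16.1% of those of Lyz1 in Lyz2, 4.7% of those of Ang4 in other angiogenin genes and 0.972% of those of Itln1 in a predicted gene, Gm9765, while Retnlb, Reg3b, Reg3g and Lypd8 shared none. Between 30.7% and 37.1% of the alignments of a library were not unique and were not counted.

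**Figure D1:**
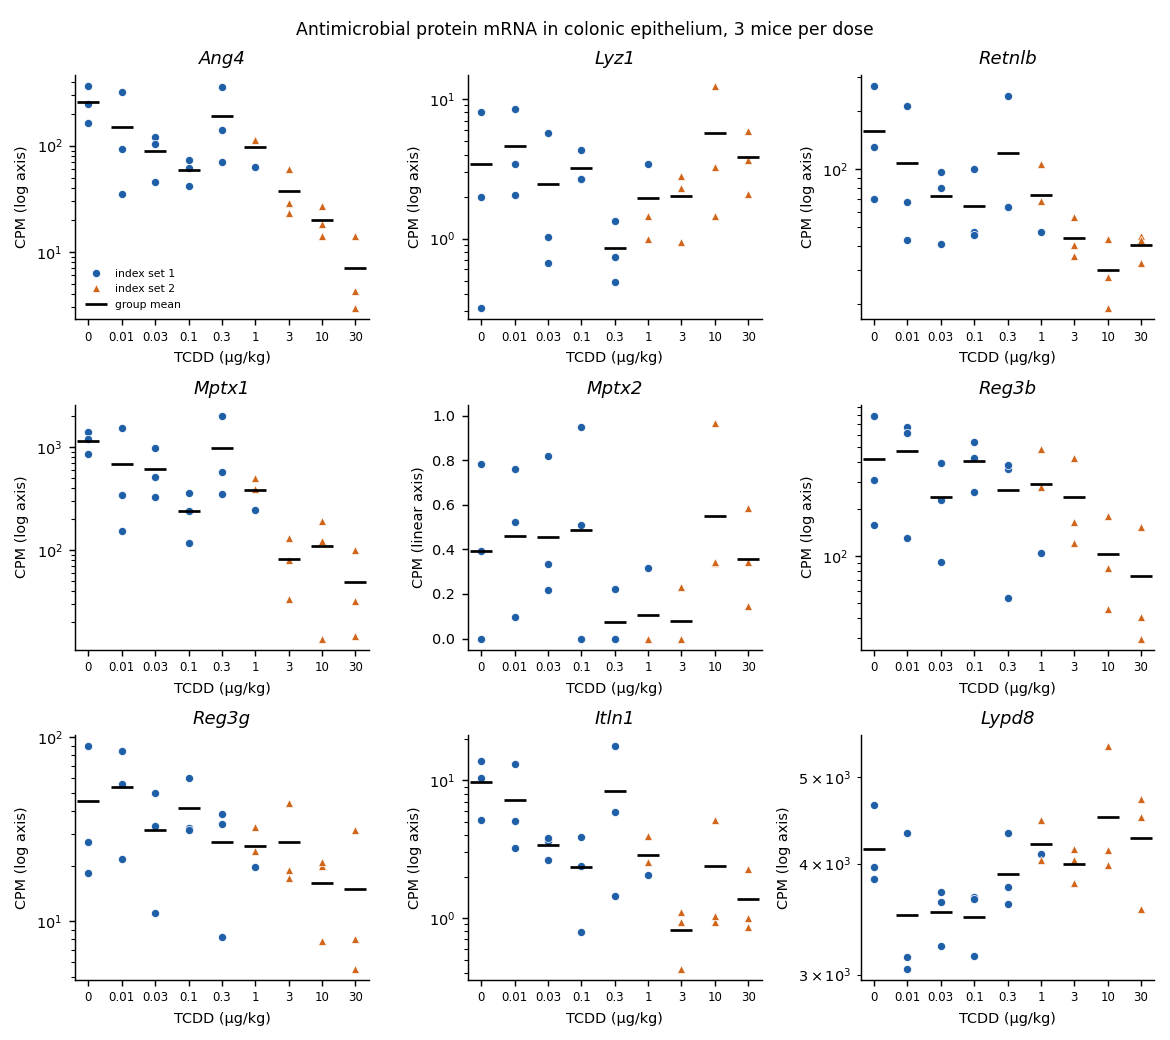
Level of each of the 9 genes in every mouse in CPM (vertical axis, log scale except for Mptx2) against the TCDD dose in μg/kg (horizontal axis, 0 for vehicle). Circles are mice of the first index set, triangles mice of the second and bars the group means of 3 mice. Ang4, Mptx1 and Itln1 lie below the vehicle mice at 3, 10 and 30 μg/kg, Reg3b and Reg3g spread widely in most groups, and Lypd8 spans 1.78-fold over all 27 mice.

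Ang4 (ENSMUSG00000060615, chromosome 14, 51763878 to 51773590, minus strand of GRCm38), a secreted ribonuclease of Paneth and goblet cells that kills bacteria, showed the largest difference. Its 3 vehicle mice stood at 246, 164 and 368 CPM. The values were 93.4, 35.1 and 321 CPM at 0.01 μg/kg, then 120, 45.4 and 103 CPM at 0.03 μg/kg. At 0.1 μg/kg they were 73.6, 61.7 and 41.4 CPM. From 0.03 μg/kg upward most mice were below all vehicle mice, but 1 mouse at 0.01 μg/kg lay within the vehicle range. The 0.3 μg/kg group broke the order, at 139, 70.8 and 358 CPM, with 1 mouse again among the vehicle mice. At 1 μg/kg Ang4 stood at 62.6, 116 and 113 CPM and at 3 μg/kg at 59.7, 23.1 and 28.7 CPM. Every mouse of these last 2 groups was below every vehicle mouse. The mice at 10 μg/kg held 14.1, 18.2 and 27.1 CPM, and those at 30 μg/kg 13.95, 2.93 and 4.22 CPM, the lowest values of the series. The fitted log2 fold change against vehicle was -2.81, -3.71 and -5.17 (SE 0.77) in the 3 highest dose groups, which is 7.00-, 13.1- and 36.0-fold lower. Leaving out the highest of the 3 mice at 30 μg/kg took the last value to -6.18.

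Lyz1 (ENSMUSG00000069515, chromosome 10, 117287797 to 117292868, minus strand) encodes the lysozyme of Paneth cells, which cuts the bacterial cell wall, and was near the limit of measurement in the colon. The vehicle mice held 1.97, 0.316 and 8.05 CPM, from 20, 3 and 82 counts. At 30 μg/kg the values were 3.67, 5.85 and 2.07 CPM and at 10 μg/kg 3.24, 1.46 and 12.5 CPM. Both dose groups lay largely inside the vehicle range. A log2 fold change of 0.15 (SE 0.82) was fitted at 30 μg/kg and became 1.73 without the highest vehicle mouse, so that no direction can be read from it. The Paneth cell list of 8 other genes (defensins, Mmp7 and Pnliprp2) was at a summed 8.95 to 41.004 CPM in vehicle and 4.83 to 7.78 CPM at 30 μg/kg. Most of the vehicle sum was Pnliprp2, a pancreatic lipase-related gene, with a mean of 20.5 CPM in vehicle and 2.18 CPM at 30 μg/kg, whereas the highest vehicle mean of the other 7 was 1.24 CPM (Defa24). Of the 8 genes, 2 were too low to be tested, Defa17 with at most 5 counts in a mouse and Defa26 with at most 2.

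Retnlb (ENSMUSG00000022650, chromosome 16, 48816856 to 48818892, plus strand), the goblet cell protein also known as RELMβ, was lower at the 3 highest doses by a smaller factor. The vehicle mice stood at 130, 70.2 and 269.6 CPM. At 3 μg/kg the values were 56.4, 35.4 and 40.3 CPM, at 10 μg/kg 19.03, 27.7 and 43.6 CPM and at 30 μg/kg 32.6, 45.1 and 42.9 CPM. All 9 of these mice lay below all vehicle mice, whereas from 0.01 to 1 μg/kg each group had at least 1 mouse within the vehicle range. Fitted log2 fold changes of -1.83, -2.38 and -1.96 (SE 0.58) for these doses correspond to 3.56-, 5.19- and 3.90-fold lower levels. Without the highest vehicle mouse they were -1.19, -1.73 and -1.32.

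Mptx1 (ENSMUSG00000026531, chromosome 1, 174330518 to 174332873, plus strand), the mucosal pentraxin, a relative of C-reactive protein made in intestinal epithelium, was the second most abundant member and spanned 146-fold over the 27 mice. Its vehicle mice stood at 1418, 851 and 1191 CPM. The highest value of the series, 2016 CPM, came from a mouse at 0.3 μg/kg, whose group otherwise held 575 and 348 CPM. A mouse at 0.01 μg/kg likewise reached 1541 CPM beside 344 and 154 CPM. So below 1 μg/kg the dosed mice overlapped the vehicle mice at 0.01, 0.03 and 0.3 μg/kg but not at 0.1 μg/kg, with 118, 241 and 360 CPM. At 1 μg/kg the values were 247, 504 and 394 CPM, and at 3 μg/kg 132, 80.1 and 33.3 CPM. At 10 μg/kg they were 191, 13.8 and 122 CPM and at 30 μg/kg 100.03, 14.7 and 31.9 CPM. Every mouse from 1 μg/kg upward was below every vehicle mouse. For 3, 10 and 30 μg/kg the fitted log2 fold change was -3.82, -3.40 and -4.55 (SE 0.95), which is 14.1-, 10.6- and 23.5-fold lower. Leaving out the highest mouse at 30 μg/kg took the last value to -5.63, and leaving out 1 mouse at 10 μg/kg gave values from -4.06 (without the highest) to -2.88 (without the lowest).

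Mptx2 (ENSMUSG00000079180, chromosome 1, 173274382 to 173277777, minus strand), the paralog of Mptx1 that Paneth cells of the small intestine make, had 0 to 13 counts in a mouse and none in 8 mice, where a count of 0 allows up to 0.242 to 0.333 CPM. The vehicle mice held 4, 0 and 8 counts and the mice at 30 μg/kg held 2, 7 and 4 counts. No difference in Mptx2 was detectable at this depth. Its promoter and that of Mptx1 were 74.0% identical over the 250 bases before the start site (202 of 273 aligned columns).

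Ang4 and Mptx1 were the members that differed most from vehicle at 10 and 30 μg/kg, and the 250 bases before their annotated starts are shown for that reason. They come from RefSeq for GRCm38.p6, at chr14:51773591-51773840 on the minus strand and chr1:174330268-174330517 on the plus strand, written from 250 bases to 1 base before the start. Capitals mark a match to the STAT3-type motif TTCNNNGAA in Ang4, at base 192 before the start, and matches to the TATA box motif TATAAA on the opposite strand in Mptx1, at bases 198 and 82.
Ang4: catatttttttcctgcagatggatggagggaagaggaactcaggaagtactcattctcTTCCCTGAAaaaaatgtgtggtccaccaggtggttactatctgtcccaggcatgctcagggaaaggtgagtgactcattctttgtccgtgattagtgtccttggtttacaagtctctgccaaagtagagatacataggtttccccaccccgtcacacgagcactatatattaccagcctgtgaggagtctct
Mptx1: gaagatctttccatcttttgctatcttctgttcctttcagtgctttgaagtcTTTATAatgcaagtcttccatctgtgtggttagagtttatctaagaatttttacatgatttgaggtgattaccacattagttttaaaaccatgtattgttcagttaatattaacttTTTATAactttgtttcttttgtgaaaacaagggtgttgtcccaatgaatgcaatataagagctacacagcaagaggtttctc
RefSeq windows were found for 8 of the 9 members and not for Retnlb. Among all 32851 windows of this length TTCNNNGAA was found in 7.0%, TATAAA in 12.4%, the AhR core motif GCGTG in 28.2% and the STAT6-type motif (TTC and GAA with 4 bases between them) in 5.9%, on either strand. No member window held GCGTG or the STAT6-type motif. A match of letters is no sign that a factor binds there, and these windows cover the immediate promoter alone.

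Reg3b (ENSMUSG00000071356, chromosome 6, 78370657 to 78373466, plus strand) and Reg3g (ENSMUSG00000030017, chromosome 6, 78466269 to 78468872, minus strand) are genes for secreted C-type lectins, the second of which kills Gram-positive bacteria by binding their peptidoglycan. Reg3b stood at 158, 306 and 791 CPM in the vehicle mice and at 29.7, 154 and 40.5 CPM at 30 μg/kg. All 3 mice at 30 μg/kg were below the vehicle mice, the nearest by 154 against 158 CPM. At 10 μg/kg, with 45.7, 182 and 83.6 CPM, 1 mouse lay in the vehicle range. From 0.01 to 3 μg/kg Reg3b ranged from 54.3 to 667 CPM in single mice and overlapped the vehicle mice at every dose. Reg3b differed from vehicle by a log2 fold change of -0.82, -2.01 and -2.49 (SE 0.83, 5.60-fold lower) from the third highest to the highest dose. Without the highest vehicle mouse the 3 values were 0.04, -1.16 and -1.63, and without the highest mouse at 30 μg/kg the last was -3.58.

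Reg3g was less abundant and its groups were no better separated. The vehicle mice held 18.4, 26.9 and 89.8 CPM, the mice at 10 μg/kg 7.77, 19.9 and 21.03 CPM and the mice at 30 μg/kg 7.98, 31.4 and 5.52 CPM. One mouse at 30 μg/kg and 2 mice at 10 μg/kg were within the vehicle range, so the groups overlapped at every dose. Its log2 fold change of -1.59 at 30 μg/kg (SE 0.70, 3.02-fold lower) became -0.60 without the highest vehicle mouse and -2.73 without the highest mouse at 30 μg/kg. Without that vehicle mouse its values at 3 and 10 μg/kg were 0.25 and -0.47.

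Because Reg3b and Reg3g varied together from mouse to mouse, as described further on, the bases from 130 to 22 before their starts are shown side by side. They lie at chr6:78370755-78370863 on the plus strand and chr6:78468896-78469004 on the minus strand of GRCm38.p6 (RefSeq). Capitals mark TATAAA in both, 29 and 27 bases before the start, and TTCNNNGAA in Reg3b at base 129, and the last 3 bases of the Reg3b stretch lie in an annotated exon of the gene.
Reg3b: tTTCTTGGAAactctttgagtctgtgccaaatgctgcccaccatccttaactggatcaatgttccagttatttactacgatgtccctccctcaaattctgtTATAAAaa
Reg3g: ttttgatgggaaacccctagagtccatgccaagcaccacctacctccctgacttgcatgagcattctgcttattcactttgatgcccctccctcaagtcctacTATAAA
The 2 stretches were identical in 75 of 112 aligned columns, and TTCNNNGAA did not occur in the 250-base window of Reg3g.

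Itln1 (ENSMUSG00000038209, chromosome 1, 171518122 to 171535294, minus strand) encodes intelectin 1, a goblet and Paneth cell lectin that binds microbial sugars. The vehicle mice held 10.3, 5.17 and 13.8 CPM. At 3 μg/kg the values were 1.103, 0.429 and 0.931 CPM, at 10 μg/kg 0.939, 1.03 and 5.15 CPM and at 30 μg/kg 1.01, 2.26 and 0.862 CPM. Every mouse at these doses was below every vehicle mouse, at 10 μg/kg by 5.15 against 5.17 CPM. Every mouse at 0.03 μg/kg (2.66 to 3.83 CPM), at 0.1 μg/kg (0.792 to 3.89 CPM) and at 1 μg/kg (2.06 to 3.97 CPM) was also below every vehicle mouse. The 0.01 μg/kg group, with 3.23, 5.05 and 13.2 CPM, overlapped the vehicle mice, and the 0.3 μg/kg group reached 17.8 CPM in the mouse that was also highest in Mptx1. Log2 fold changes of -3.56, -2.01 and -2.83 (SE 0.75) were fitted, which is 11.8-, 4.03- and 7.12-fold lower, and the value for 10 μg/kg was -3.30 without the highest mouse of that group.

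Lypd8 (ENSMUSG00000013643, chromosome 11, 58379043 to 58390728, plus strand), a protein of surface colonocytes that binds flagella and keeps motile bacteria out of the inner mucus, was the most abundant member and the most even. Over the 27 mice it ranged from 3046 to 5424 CPM, a 1.78-fold span. The vehicle mice stood at 4650, 3966 and 3844 CPM and the mice at 30 μg/kg at 4514, 4734 and 3560 CPM. Its log2 fold changes lay between -0.25 (0.1 μg/kg) and 0.12 (10 μg/kg), each with an SE of 0.14, and the value for 30 μg/kg was 0.04.

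**Figure D2:**
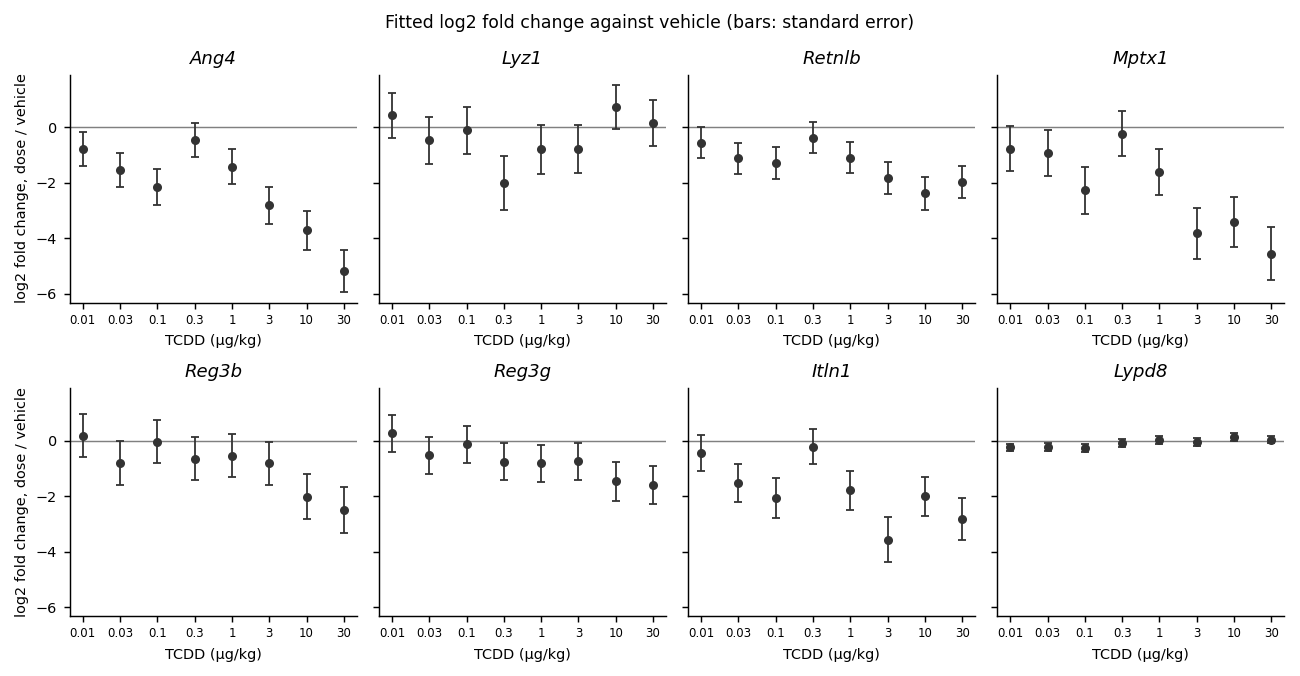
Fitted log2 fold change of the 8 members that passed the filter (vertical axis) against TCDD dose in μg/kg (horizontal axis), with bars of 1 standard error. Each point compares 3 dosed mice with the same 3 vehicle mice, so the points of a panel are not independent. Ang4 reaches -5.17 and Mptx1 -4.55 at 30 μg/kg while Lypd8 stays between -0.25 and 0.12.

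Counted over the 8 members that passed the filter, the number with every dosed mouse below every vehicle mouse was 0 for the dose of 0.01 μg/kg (5.03% of all 16496 tested genes), 3 for 0.03 (6.55%), 4 for 0.1 (5.95%), 0 for 0.3 (6.23%), 3 for 1 (7.4%), 4 for 3 (11.5%), 4 for 10 (13.1%) and 5 for 30 μg/kg (15.2%). The last 5 were Ang4, Retnlb, Mptx1, Reg3b and Itln1. As the members were chosen for being low, these counts describe the choice and nothing is read from them. Their median log2 fold change was -1.32, -2.01 and -2.23 in the 3 highest dose groups, beside -0.0026, -0.011 and -0.0022 over all tested genes.

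With the index set as a term, which rests on the 1 μg/kg group, the differences from vehicle at 30 μg/kg moved to -6.04 for Ang4, -5.42 for Mptx1, -4.34 for Reg3b, -3.501 for Itln1, -2.84 for Retnlb, -2.12 for Reg3g, -0.01 for Lypd8 and 1.64 for Lyz1. At 10 μg/kg the same fit gave -3.87 for Reg3b and -3.25 for Retnlb.

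Mice given 30 and 3 μg/kg belong to one index set, the second, and can be compared without a change of set. Ang4 was lower still, by a log2 fold change of -2.36 (SE 0.49), with no overlap between 2.93 to 13.95 CPM and 23.1 to 59.7 CPM. Reg3b differed by -1.67 (SE 0.65) and Reg3g by -0.84 (SE 0.57), both with overlapping mice. For Mptx1 the difference was -0.72 (SE 0.79), for Retnlb -0.13 (SE 0.27) and for Itln1 0.74 (SE 0.71), each within about 1 standard error of 0. For 10 minus 3 μg/kg, also within the second set, the log2 differences were -0.89 (SE 0.45) for Ang4, -1.19 (SE 0.64) for Reg3b, -0.71 (SE 0.57) for Reg3g, -0.53 (SE 0.27) for Retnlb, 0.43 (SE 0.77) for Mptx1 and 1.56 (SE 0.67) for Itln1. Lyz1, near the limit of measurement, was higher by 0.94 (SE 0.68) for 30 minus 3 μg/kg and 1.53 (SE 0.66) for 10 minus 3 μg/kg. Lypd8 differed by 0.10 (SE 0.15) and 0.18 (SE 0.15) in the same order.

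In the 18 mice of the 6 groups from 0.01 to 3 μg/kg, without vehicle, the change in log2 level per step of dose was fitted. The levels at 3 μg/kg were known when the members were chosen, so these slopes are a description and no independent test of a trend. The slope of Mptx1 was -0.33 per step (95% interval -0.72 to 0.068), that of Itln1 -0.30 (-0.64 to 0.032) and that of Lyz1 -0.26 (-0.50 to -0.0073). Reg3g and Ang4 both had -0.19 (-0.38 to -0.0065 and -0.48 to 0.108), Reg3b and Retnlb had -0.15 and -0.14, and Lypd8 had 0.05 (0.012 to 0.097). These values rested in part on single mice of the 0.01 μg/kg group. Without mouse 14 the slopes were -0.02 for Ang4, -0.02 for Retnlb, -0.19 for Mptx1 and -0.18 for Itln1, without mouse 11 they were -0.14 for Lyz1 and -0.12 for Reg3g, and without mouse 9 Reg3b had -0.09. None of the 8 passed an adjusted p of 0.05 by edgeR's quasi-likelihood test, DESeq2 or limma voom (0 of 8, beside 1.45% of 16006 genes by edgeR), and 3 had an unadjusted edgeR p under 0.05 (15.2% of all genes). With the doses from 0.01 to 0.3 μg/kg alone the slopes of Ang4, Mptx1, Retnlb and Itln1 were positive, at 0.087, 0.10, 0.054 and 0.074, and each of the 8 members had an edgeR adjusted p of 0.999. The mouse at 0.3 μg/kg that was highest in Mptx1 stands in that group.

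Mice of one dose group differed far more in these genes than in most. The standard deviation of the log2 level within dose groups was 1.21 for Mptx1, 1.15 for Lyz1, 1.15 for Reg3b, 0.97 for Reg3g, 0.96 for Itln1, 0.90 for Ang4 and 0.76 for Retnlb. The median over all tested genes was 0.21, and these 7 members each exceeded at least 97.4% of them. Lypd8, at 0.17, exceeded 39.1% of all genes but 74.6% of the 500 genes nearest to it in level. With 3 mice a group, this spread sets the width of every comparison of these genes with vehicle.

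**Figure D3:**
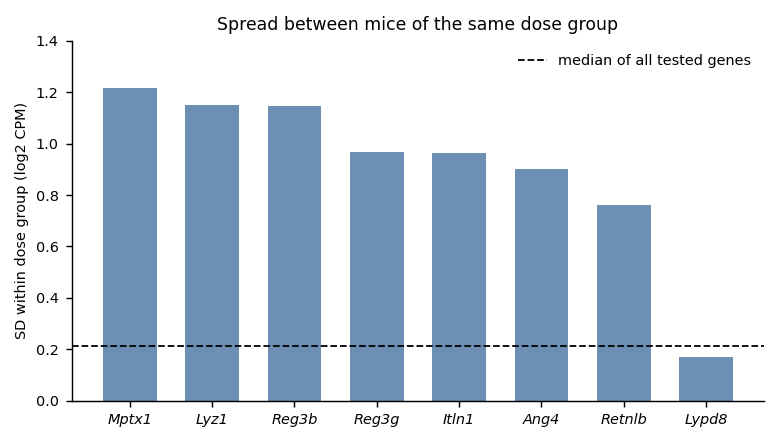
Standard deviation of the log2 CPM within dose groups (bars, vertical axis from 0) of the 8 members that passed the filter, with a dashed line at the median of all tested genes, 0.21. All members but Lypd8 stand well above the line, from 0.76 to 1.21, and Lypd8 stands under it at 0.17, above 74.6% of the 500 genes nearest to it in level.

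The members did not vary independently. Over the 27 mice, with each level taken as its deviation from the mean of its own dose group, 5 of 28 pairs passed the adjusted test of Pearson's r, and 4 of them that of Spearman's rho (permutation within dose groups, 100000 resamples, two-sided). Reg3b and Reg3g were the closest pair (Pearson's r = 0.889, permutation p = 0.00196 after adjustment, Spearman's rho = 0.882), and the relation was as close within the first index set (0.936, 15 mice) and the second (0.847, 11 mice). Ang4 and Retnlb had r = 0.767 (rho = 0.777, adjusted permutation p = 0.00378), with 0.909 in the first set and 0.216 in the second. Retnlb and Itln1 had r = 0.699 (rho = 0.651, adjusted permutation p = 0.0223), with 0.721 and 0.672 in the 2 sets, and Ang4 and Mptx1 had r = 0.688 (rho = 0.66, adjusted permutation p = 0.0223), with 0.83 and 0.521. Mptx1 and Reg3b had a negative relation (r = -0.618, adjusted permutation p = 0.0403) that did not pass on ranks (rho = -0.543, adjusted permutation p = 0.0817), with -0.795 and -0.605 in the 2 sets. Without the 2 mice farthest from the median on the first gene of each pair, the 5 values of r were 0.841, 0.676, 0.506, 0.581 and -0.487 in the same order, and 2 of the 28 pairs were called. One mouse at 0.01 μg/kg and 1 at 0.3 μg/kg were high in Ang4, Mptx1, Retnlb and Itln1 and low in Reg3b and Reg3g.

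**Figure D4:**
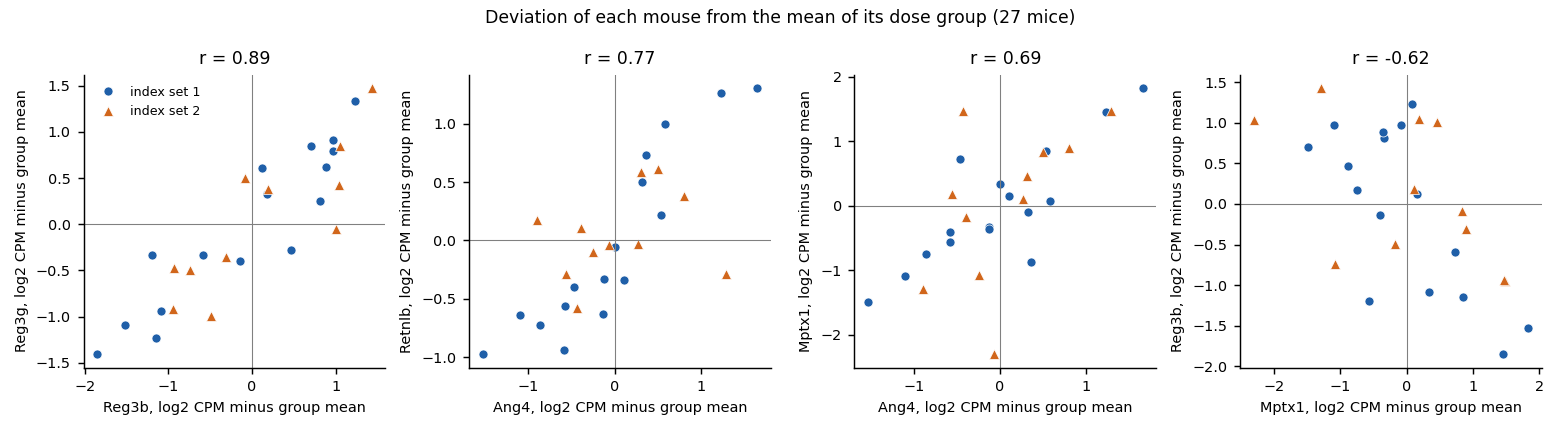
Deviation of each of the 27 mice from the mean of its dose group, in log2 CPM, for 4 pairs of members. Circles are mice of the first index set and triangles mice of the second. Reg3b and Reg3g rise together in both sets (r = 0.89), Ang4 and Retnlb mainly in the first set (r = 0.77 over all mice), Ang4 and Mptx1 less closely (r = 0.69), and Mptx1 and Reg3b run opposite (r = -0.62, not passed on ranks).

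The same deviations also moved with the position marked by Hox genes, which are expressed along the length of the gut and of which the listed ones mark its distal end. A score from 4 tested Hox genes of the 6 on that list (the mean of their log2 levels) was related to Reg3b (r = -0.708, rho = -0.734, adjusted permutation p = 0.00024), Mptx1 (r = 0.581, rho = 0.538, adjusted permutation p = 0.0165) and Reg3g (r = -0.503, rho = -0.556, adjusted permutation p = 0.0205), 3 of 8 relations. Mice of the same group with a higher score thus had more Mptx1 and less Reg3b and Reg3g. The share of all tested genes related to the score was not computed, so 3 of 8 does not set the members apart from other genes. Within the first and second index set r was -0.736 and -0.537 for Reg3b, 0.654 and 0.824 for Mptx1, and -0.629 and -0.255 for Reg3g. Without the 2 mice farthest from the median in the member itself, chosen anew for each member, the values were -0.697, 0.46 and -0.511. Reg3b alone was then called. Mice with extreme Hox scores were not left out as such. The summed Hox list ranged from 71.2 to 176 CPM in the vehicle mice and from 77.5 to 175 CPM at 30 μg/kg. Whether mice differed in the stretch of colon that was scraped was not tested.

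Genes outside the list that varied most like a member from mouse to mouse were found over the 16495 other tested genes, as a description without a test. For Mptx1 they were Clca1 (r = 0.875), a goblet cell mucus protein, Reg4 (0.864), a lectin of deep crypt secretory cells, and Robo2 (0.854). For Ang4 they were the mitochondrial genes mt-Nd2 (0.854) and mt-Nd1 (0.78) and E330009J07Rik (0.83), and for Retnlb they included Chrm3 (0.831), a muscarinic acetylcholine receptor, and Rbm10 (0.816). After Reg3b itself the nearest to Reg3g was Tmed7 (0.809). All points share the same 27 libraries.

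A further 96 antimicrobial defence genes, grouped by role, were set beside the members, and 62 of them were abundant enough to test. At 30 μg/kg 16 of the 62 passed edgeR's test at an adjusted p under 0.05 with at least a 1.5-fold change, 5 higher and 11 lower, against 6.16% of all tested genes. The list was chosen with earlier results of these data known, so its counts are no independent test against that share. Over all 62 tested genes the median log2 fold change was -0.13, beside -0.0022 for all genes. At 10 μg/kg 5 passed (background 1.78%), Zg16 higher and Sprr1a, Pigr, Tlr4 and Sox9 lower, and at 3 μg/kg Tlr4 alone passed, lower (background 0.697%). From 0.01 to 1 μg/kg none was called by edgeR, DESeq2 or limma voom, while 1 μg/kg called 0.2% of all genes and the lower doses none. At an unadjusted edgeR p under 0.05 stood 7, 10, 12, 9 and 10 of the 62 genes in order of dose, beside 6.35%, 4.64%, 6.37%, 5.19% and 9.8% of all tested genes. These counts share the same vehicle mice and are not independent. Reg1, Reg2 and Rnase1 are among them at 0.03, 0.1 and 0.3 μg/kg. Their vehicle mice ranged from 0.197 to 91.1, from 0 to 12.9 and from 0.0982 to 130 CPM. Leaving out 1 mouse took the 16 genes to as few as 7 (without the mouse at 30 μg/kg numbered 67) and to 10 without vehicle mouse 2, vehicle mouse 3 or mouse 66 at 30 μg/kg. The number called at 10 μg/kg went from 5 to 3 without vehicle mouse 2, vehicle mouse 3 or mouse 57, to 2 without mouse 59 and to 1 without vehicle mouse 4. Without mouse 57 Zg16, Sprr1a and Sox9 were lost, and Lpo, not called with all mice, was called. With the index set as a term 3 of the 16 remained, Pigr and Tlr4 among them, and 1 of the 5, Tlr4.

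Among the secreted lectins and Reg proteins (9 tested of 10), Zg16, a goblet cell lectin that binds peptidoglycan and keeps bacteria off the epithelium, rose from 669 ± 117 to 1321 ± 140 CPM (log2 fold change 0.98, SE 0.18, edgeR adjusted p = 0.00149, n = 3 each). Lgals3 rose by 0.61. Reg3a, another Reg3 gene, fell by 3.56 from a mean of 1.39 CPM, but it was near the limit of measurement, with reads in only 1 of the 3 mice at 30 μg/kg. Without that mouse the group held no reads, so the fitted value of -7.01 is set by the fit and is not a measured fold. The call of Reg3a was lost without vehicle mouse 3 or 4, without mouse 65 or 67 and with the index set as a term. Dmbt1, the abundant scavenger receptor-like mucin, had a log2 fold change of -0.21 and did not pass, and Lgals4, with 0.51, passed the adjusted p but not the fold.

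Of the 5 tested ribonuclease, lysozyme, resistin and pentraxin genes besides the members, none was called at 30 μg/kg. Among them 1, Rnase1, had an unadjusted edgeR p under 0.05, and its vehicle mice ranged from 0.0982 to 130 CPM (43.6 ± 75.1 CPM). Ang, the general angiogenin gene beside Ang4, stood at 15.4 ± 4.43 CPM in vehicle and 12.4 ± 1.74 CPM at 30 μg/kg (log2 fold change -0.32), and Lyz2, the macrophage lysozyme, at 9.74 ± 2.11 and 10.5 ± 6.65 CPM. Ang5, with which Ang4 shares most of its ambiguous sequence, had at most 1 count in a mouse.

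Among defensins and other secreted antimicrobial proteins (14 tested of 25), 6 fell at 30 μg/kg and none rose. Pigr, the receptor that carries IgA across the epithelium, fell from 3883 ± 423 to 2225 ± 316 CPM (log2 fold change -0.80, SE 0.13, edgeR adjusted p = 0.000481). Sprr1a fell by 1.29 and Sprr2a3 by 1.16 on the log2 scale, and Sprr2a1 and Sprr2a2 by 0.93 and 0.65. Sprr2a1, Sprr2a2 and Sprr2a3 are near-identical copies among which reads may be split, so their separate values are uncertain. Defb37 fell by 2.76 from a mean of 2.24 CPM, but its call was lost with limma voom, with the index set as a term (-4.33), without vehicle mouse 3 or 4 and without mouse 66 or 67.

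Genes for oxidants and metal capture (5 tested of 10) included Nox1, the colonic superoxide-producing oxidase, which fell by 2.02 on the log2 scale from a mean of 11.6 CPM (-3.23 without mouse 65, and -0.95 and not called with the index set as a term), and Lpo, lactoperoxidase, which rose by 1.15. Duox2, the hydrogen peroxide-producing oxidase, had a log2 fold change of -0.63 (edgeR adjusted p = 0.177). Of 9 genes for ligands, cytokines among them, 2 were abundant enough to test and neither was called at 30 μg/kg by edgeR, with 0 at an unadjusted p under 0.05. Among receptors and inhibitors (12 tested of 14) Tlr4, the receptor for lipopolysaccharide, fell from 54.5 ± 6.09 to 26.4 ± 2.08 CPM (log2 fold change -1.05, SE 0.14, edgeR adjusted p = 6.06e-05), and Il22ra1, which receives interleukin 22, had 0.34 (adjusted p = 0.254). Of 15 intracellular sensors, signal transducers and transcription factors 4 passed. Atoh1, which directs cells to the secretory lineage, rose by 0.68, while Sox9, a crypt base transcription factor, fell by 0.69 and Nod2, a sensor of bacterial peptidoglycan, by 0.74. Stat3, with -0.03, and Ahr, with 0.16, did not pass.

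**Figure D5:**
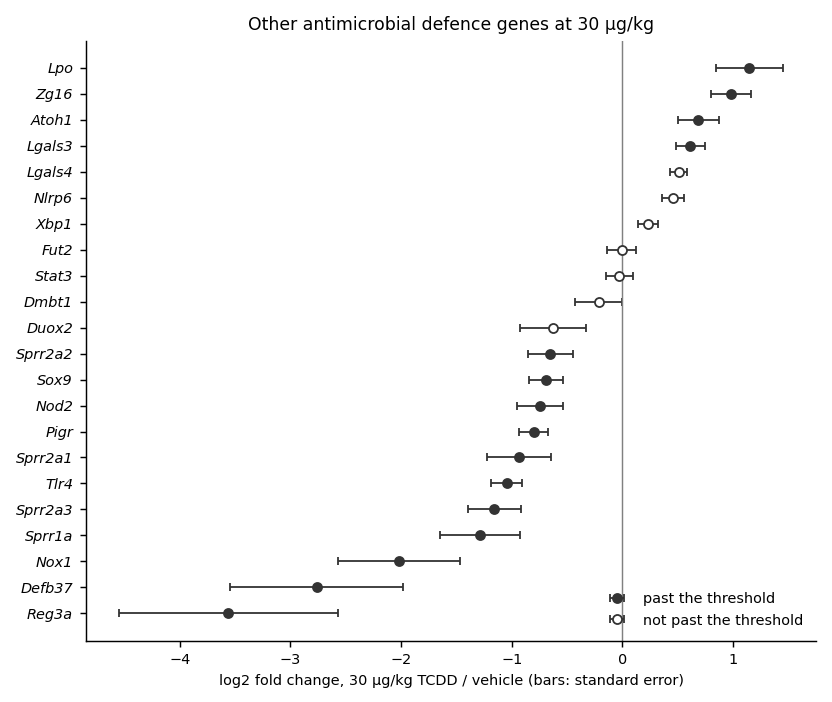
Log2 fold change at 30 μg/kg against vehicle (horizontal axis, bars of 1 standard error, 3 mice in each group) for the named defence genes that passed the test (filled) and 7 abundant ones that did not (open). The filled genes Lpo, Zg16, Atoh1 and Lgals3 lie to the right of 0 and 11 to the left. The value of Reg3a, -3.56, rests on reads in 1 mouse at that dose.

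The cell types that make these proteins were followed through marker genes, and the part of cell makeup in the lower member levels was not tested. The 9 goblet and deep crypt secretory cell markers, Muc2, Clca1 and Reg4 among them, summed to 49568 to 57914 CPM in vehicle and 44736 to 50420 CPM at 30 μg/kg. None was called by edgeR, DESeq2 or limma voom, with 1, Tff3, at an unadjusted edgeR p under 0.05. Tff3 was higher by 0.43 on the log2 scale and passed the adjusted p (edgeR, 0.0365) but not the fold. Muc2 itself, the gel-forming mucin, stood at 35922 ± 4159 and 34693 ± 4604 CPM. The 7 surface colonocyte markers summed to 7349 to 7816 CPM and 7138 to 8245 CPM, with 1 lower, Ms4a12. None of the 6 tested Paneth cell markers was called by edgeR or limma voom and 1 was lower by DESeq2, with 1 at an unadjusted edgeR p under 0.05.

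The 5 smooth muscle markers (Acta2, Myh11, Des, Actg2 and Cnn1) summed to 42.0 to 79.2 CPM in vehicle and 89.2 to 592 CPM at 30 μg/kg, and the median of their log2 fold changes was 2.49. At that dose edgeR and limma voom called none, DESeq2 called 1, and all 5 had an unadjusted edgeR p under 0.05. Small intestinal markers (6 found of 7) summed to 54.0 to 74.5 CPM and 65.7 to 231 CPM, with Fabp1, Lct and Alpi called higher by edgeR, 3 called higher by DESeq2 and none by limma voom. The 6 macrophage markers summed to 16.7 to 21.4 CPM and 13.0 to 33.9 CPM, with none called by edgeR, DESeq2 or limma voom and 1 at an unadjusted edgeR p under 0.05. The 5 neutrophil markers, of which 2 could be tested, summed to 6.28 to 25.2 CPM and 3.45 to 12.3 CPM, with none called by edgeR, DESeq2 or limma voom and 0 at an unadjusted edgeR p under 0.05. Nearly all of that sum was Ly6g, with a mean of 13.2 CPM in vehicle and 5.84 CPM at 30 μg/kg, while the defining S100a8 and S100a9 had at most 2 and 1 counts in a mouse. The part of any of these lists in the member levels was not tested.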

How the data were processed

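Read counts per gene, one table per mouse, were deposited by the authors as HTSeq counts without normalization. The submitters' processing notes name FastQC 0.11.3, Trimmomatic 0.33, TopHat2 2.1.0, SAMtools 1.2.0, HTSeq 0.6.1 and DESeq, and the build GRCm38. Libraries came from a NuGen Ovation mouse kit. The strand setting of the counting is not given in the sources used here. Per library, 30.7% to 37.1% of the alignments were not unique, 29.1% to 33.3% lay in no feature and 0.392% to 0.607% were ambiguous, and these rows were left out.

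CPM were computed from the counts with TMM-scaled library sizes, RPKM with the union of exons of GENCODE for GRCm38, and log2 CPM with a prior count of 2. Genes were filtered with filterByExpr (minimum count 10), which left 16496 genes over 27 mice and 16006 over the 18 mice of the slope. Groups were compared with edgeR's quasi-likelihood test (edgeR 4.0.16, R 4.3.3) fitted on all 9 groups. A call was a Benjamini-Hochberg adjusted p under 0.05, over all genes, with a fold of at least 1.5; the slope used the adjusted p alone. DESeq2 1.42.0 and limma voom 3.58.1 were alternatives. Scripts were tested on simulated data. Relations between members used deviations from group means, permuted within groups (two-sided; the smallest p the permutations can give is 1e-05), with Benjamini-Hochberg adjustment over 28 and 8 relations; within an index set, deviations were taken from the group mean in that set.

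All 9 members were named, together with other defence genes called at 10 or 30 μg/kg, up to 10 of the most abundant ones, the 3 genes nearest to Ang4, Mptx1, Retnlb and Reg3g, and marker genes with their lists; a few results that this rule names, and 1 marker list, are not reported here. The members and lists were chosen with earlier results of these data known. Replicate mice differed by more than counting noise in all 27 pairs (chi-square per degree of freedom 5.32 to 24.3). That the index sets are separate preparations or runs is not stated; they are inferred from repeated barcodes and, for 5 mice whose barcodes did not recur, from the order of the mouse numbers.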

Additional observations from a re-analysis of the deposited data

How the results depend on the processing

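No paired analysis was possible because the labels number every mouse separately and no number recurs in another group. Of the slopes over 0.01 to 3 μg/kg, those of Ang4, Itln1, Mptx1 and Retnlb turned positive with 0.01 to 0.3 μg/kg alone (0.087, 0.074, 0.10 and 0.054). Without 1 mouse in turn, 0 to 1 members were called for slope (Lypd8, at 0.08, without 1 mouse at 0.01 μg/kg). Pairs of members called numbered 2 in place of 5 in the first index set alone and 2 without 2 mice, and Hox relations 1 in place of 3 without 2 mice. The other defence genes called at 1 μg/kg numbered 2 in place of 0 with only the groups compared. At 3 μg/kg 1 became 5 with DESeq2, 5 with no filter on low counts and 7 with only the groups compared. At 10 μg/kg 5 became 10 with no filter, 8 with the adjusted p alone, 1 with the index set as a term, 8 with the Hox score as a covariate and 1 to 5 without 1 mouse (3 without vehicle mouse 2 or 3 or mouse 57, 2 without mouse 59 and 1 without vehicle mouse 4). At 30 μg/kg 16 became 3 with the index set as a term, 1 for 30 against 3 μg/kg within the second index set and 7 to 13 without 1 mouse. Of the 16 genes 5 passed without each of the 6 mice, Zg16, Tlr4, Pigr and Sprr2a3 among them, and the other 11 were lost at least once. Nox1 at 10 μg/kg, not called, turned from -0.88 to 0.18 with the index set as a term (edgeR adjusted p = 0.952). Members with every mouse below vehicle numbered 3 to 6 at 10 μg/kg and 5 to 6 at 30 μg/kg without 1 mouse, and 3 at 10 μg/kg with DESeq-type size factors. The Hox covariate and the comparison within the second index set were added after the data had been seen. The cause of each change was not tested. Depth limited Mptx2, Lyz1 and 34 other defence genes too low to test, of which the highest had 28 counts in a mouse and 5 had none. Counting intervals cover counting error only.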
